A study of Mus musculus with 16 samples.

Results

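The genes described here are the 7 that make up the corticosteroid receptors of the mouse stomach, the enzymes that set the amount of active hormone inside a cell, and the chaperones that hold the receptors ready. They were taken by symbol from the deposited table of counts: Nr3c1, Nr3c2, Hsd11b1, Hsd11b2, H6pd, Fkbp4 and Ptges3. They are 7 of the 24964 genes in the table, and all 7 were among the 15385 genes with enough counts to be tested. The rule that took them named symbols and no level or difference. The members were chosen with earlier results of these data known, so the choice is not independent of those results.

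Corticosteroids are made in the adrenal cortex and act through the glucocorticoid receptor, encoded by Nr3c1, and the mineralocorticoid receptor, encoded by Nr3c2, both of which are transcription factors. The enzyme encoded by Hsd11b1 sits in the endoplasmic reticulum and turns inactive 11-dehydrocorticosterone into corticosterone, using NADPH that H6pd supplies there, while the enzyme encoded by Hsd11b2 turns corticosterone into the inactive form and is known for protecting the mineralocorticoid receptor of the kidney and colon from glucocorticoids. Before hormone binds, the receptors are held by Hsp90 together with p23, encoded by Ptges3, and with an immunophilin such as FKBP52, encoded by Fkbp4, or FKBP51, encoded by Fkbp5.

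RNA was sequenced from 4 mm pieces of corpus wall taken along the lesser curvature in female mice aged 8 weeks, in 4 groups of 4 libraries. WT-S and WT-A came from wild-type C57BL/6 mice. TTP-S and TTP-A came from congenic C57BL/6 mice carrying TTPΔARE, an allele of Zfp36 that lacks an AU-rich element in its 3′ UTR. Zfp36 encodes tristetraprolin (TTP), which promotes the decay of messenger RNAs with AU-rich elements. The A groups had adrenalectomy (ADX), removal of the adrenal glands, with gastric inflammation, per the labels. The S groups are labelled with spasmolytic polypeptide-expressing metaplasia (SPEM), and the labels do not state what S stands for or whether these mice were operated on. The allele is carried in every cell of the TTP mice. The labels do not say which libraries came from separate animals, so the p-values measure the spread between these libraries, which may be partly technical.

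The libraries held 17453930 to 25849472 counts over genes. The level of Zfp36 was 110.5 to 131.4 CPM (counts scaled to library size) in the 8 TTPΔARE libraries and 55.1 to 88.6 CPM in the 8 wild-type libraries, and the genotypes did not overlap. Markers of the corpus were abundant in all groups: summed over 4 chief cell genes the level was 47230 to 149700 CPM, and summed over 5 parietal cell genes it was 15960 to 24630 CPM. Of 6 adrenal cortex markers, those of the final steps of hormone synthesis were nearly absent, with at most 3 counts of Cyp11b1 and 1 of Cyp11b2 in any library, whereas Star, the most abundant, was at 3.55 to 6.04 CPM, and the list summed to 4.50 to 9.85 CPM.

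Some libraries stood apart from the others of their group. WT-A 3 and WT-A 4 followed the GC content of the transcripts: Spearman's rho between GC content and a gene's deviation, across 11493 genes that are not independent replicates, was 0.73 and 0.757 in these libraries, against -0.31 to 0.166 in the other 14. Where these libraries decide a call or move a difference of the 7 genes by over 1.5 times, the value is given also without them (14 libraries) or with a GC correction in all 16. WT-S 1 and TTP-A 1 had a high sum of mucous neck and SPEM markers (Tff2, Muc6, Gkn3, Cd44 and Wfdc2). It was 3174 CPM in WT-S 1 against 936 to 1501 CPM in the other WT-S libraries. TTP-A 1 had 3975 CPM against 1338 to 2561 CPM in the other TTP-A libraries. Most of each sum was Muc6, which reached 2358 CPM for WT-S 1. For TTP-A 1 Muc6 stood at 3279 CPM. Not every marker was high there: TTP-A 1 had 10697 counts of Tff2, fewer than the 12691 of TTP-A 2, a library of similar size.

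In wild-type corpus, Hsd11b2 was 2.07-fold higher and H6pd 1.33-fold higher in WT-A than in WT-S, and both receptor genes were lower, whereas Hsd11b1, Fkbp4 and Ptges3 did not pass the test. This made 4 of 7 genes called, 2 in each direction, at an adjusted p under 0.05 by edgeR's quasi-likelihood test with Benjamini-Hochberg adjustment over all 15385 genes. The background was high: 18.8% of all genes tested were called in this comparison, 9.8% higher and 8.99% lower. Without WT-A 3 and 4 the count was 2 (Hsd11b2 and H6pd) against a background of 10.4%, and with the GC correction it was 1 (Hsd11b2) against 15.4%. In TTPΔARE corpus none of the 7 genes was called between TTP-A and TTP-S by edgeR, DESeq2 or limma-voom. The background was 2.9% in edgeR (1.55% higher, 1.35% lower), and of the 15385 genes DESeq2 called 863 and limma-voom 2346. Of the 7 genes, 0 had an unadjusted p under 0.05 in edgeR (15.9% of all genes) and 3 in limma-voom (28.9% of all genes).

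Promoter windows of the members were searched for sites of the receptors and of stress factors. The windows run from 250 bases before to 50 bases after the start in the RefSeq table for GRCm38.p6, which holds 5 of the 7 genes. Those of H6pd and Nr3c2 are printed because these genes were called in opposite directions in WT-A. H6pd lies on the reverse strand at chr4:150003187-150003486, a window inside the longer gene span of the GENCODE annotation, and the capitals mark the hexamer TGTTCT, 1 arm of a glucocorticoid response element. Nr3c2 lies on the forward strand at chr8:76902080-76902379, also inside the longer GENCODE gene span, and the capitals mark the heat shock element core GAANNTTC.
H6pd: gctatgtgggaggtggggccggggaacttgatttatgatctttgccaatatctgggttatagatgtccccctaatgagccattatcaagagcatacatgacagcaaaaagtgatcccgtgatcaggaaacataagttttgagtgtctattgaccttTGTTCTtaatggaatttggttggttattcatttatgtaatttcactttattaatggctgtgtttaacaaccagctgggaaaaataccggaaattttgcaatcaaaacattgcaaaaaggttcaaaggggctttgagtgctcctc
Nr3c2: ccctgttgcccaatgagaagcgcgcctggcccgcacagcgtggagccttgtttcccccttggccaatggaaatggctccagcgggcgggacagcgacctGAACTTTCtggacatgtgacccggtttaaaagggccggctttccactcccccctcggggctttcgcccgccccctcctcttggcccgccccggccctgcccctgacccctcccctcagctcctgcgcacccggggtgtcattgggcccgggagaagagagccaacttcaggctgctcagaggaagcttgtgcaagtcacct
Both strands were searched. The hexamer was found in 1 of the 5 windows, H6pd, at -94 from the start, and in 19% of all 32851 windows of the table. The heat shock element core was found in Nr3c2 and Fkbp4, in each at -151 from the start, and in 7.86% of all windows. The full palindromic glucocorticoid response element was in none of the 5 and in 0.00913% of all windows, and TGACGTCA, the cAMP response element, and CACGTG, the E-box, were in none of the 5 against 1.79% and 7.15% of all windows. A match in such a window is a run of letters and was not tested as a binding site. In the longest annotated 3′ UTR of each gene, the TTP heptamer TATTTAT was present in 0 of the 7 genes, against 4264 of 14486 tested genes (29.4%). The shorter AU-rich pentamer ATTTA occurred 10 times each in Nr3c1 and Nr3c2 and 4 times in Ptges3. It occurred 1 time each in Hsd11b2, H6pd and Fkbp4 and not in Hsd11b1, and was not counted over all genes.

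**Figure D1:**
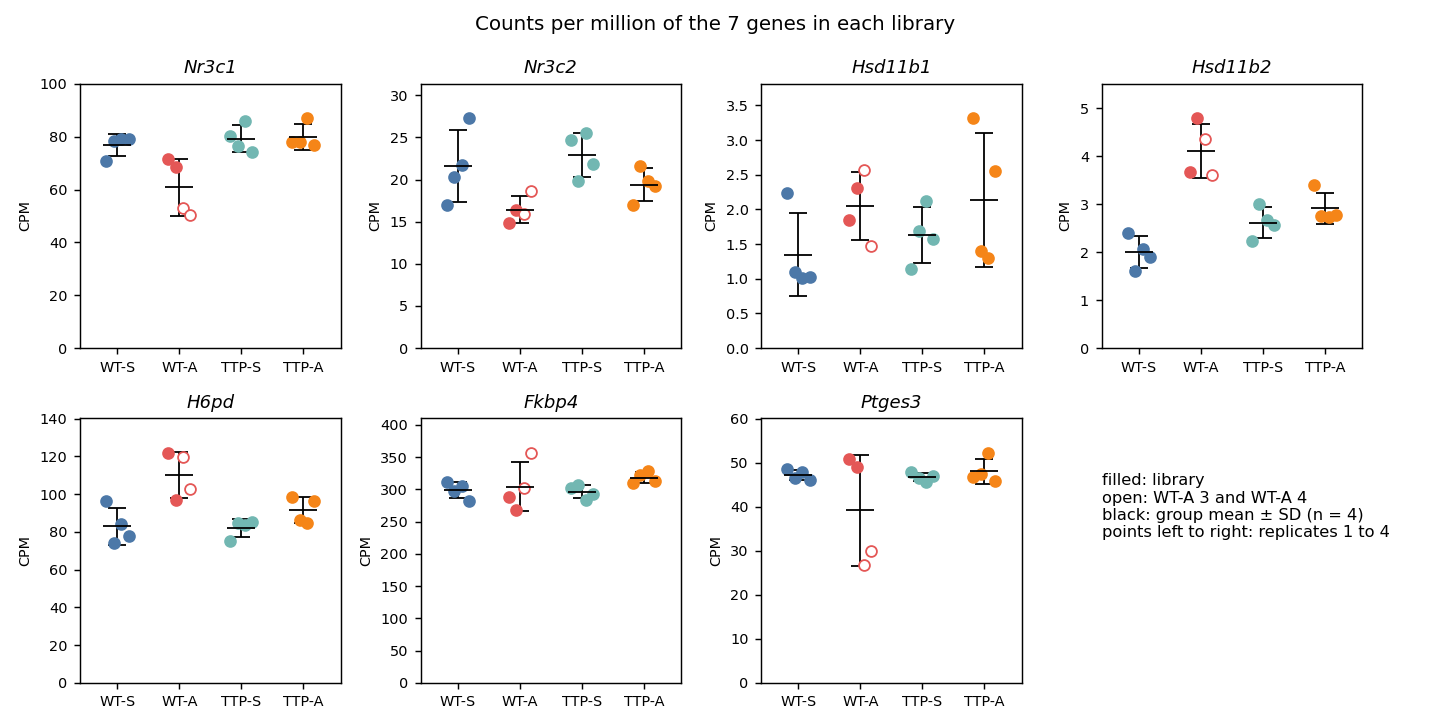
Levels of the 7 genes in each of the 16 libraries (CPM, linear axes starting at 0; points are libraries, bars the group mean ± SD, n = 4). Hsd11b2 in WT-A sits between 3.61 and 4.80 CPM, above the other 12 libraries, and the low WT-A points of Ptges3 and Nr3c1 are WT-A 3 and WT-A 4.

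Hsd11b2, the inactivating enzyme (ENSMUSG00000031891.6; chromosome 8, 105518755 to 105523988, forward strand, GRCm38), was scarce, with 37 to 139 counts per library. Its levels in WT-S were 2.41, 1.61, 2.07 and 1.89 CPM for replicates 1 to 4, a mean of 1.995 ± 0.333 (SD, n = 4). In WT-A they were 3.68, 4.80, 4.37 and 3.61 CPM, a mean of 4.11 ± 0.569. Every WT-A library was above every WT-S library. The ranges of WT-A and WT-S did not overlap for 2 of the 7 genes, Hsd11b2 and H6pd, and for 17.7% of all genes. The difference was 1.05 on the log2 scale (SE 0.15; edgeR adjusted p = 0.0013), and it passed in all 8 leave-one-out fits. Without WT-A 3 and 4 it was 1.09 (edgeR adjusted p = 0.00404), and with the GC correction 0.90 (adjusted p = 0.00277).

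The Hsd11b2 means of the TTPΔARE groups lay between those of WT-S and WT-A, and the range of TTP-S overlapped that of WT-S. TTP-S gave 2.23, 3.01, 2.67 and 2.56 CPM (mean 2.62 ± 0.321), and TTP-A gave 3.41, 2.75, 2.74 and 2.78 CPM (mean 2.92 ± 0.325). The ranges overlapped, and TTP-A minus TTP-S was 0.16 (SE 0.15; edgeR adjusted p = 0.714). The highest TTP-A library was TTP-A 1, the library with the highest summed neck and SPEM markers, and it was still below the lowest WT-A library. TTP-S minus WT-S was 0.39 (SE 0.16; unadjusted p = 0.0239, edgeR adjusted p = 0.556).

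The difference between the genotypes in the response of Hsd11b2 was the interaction term, -0.89 (SE 0.22). It did not pass in edgeR (adjusted p = 0.124; 0.136 without WT-A 3 and 4; 0.16 with the GC correction). DESeq2 and limma-voom with sample weights did call it, with adjusted p = 0.041 and 0.020. Between the adrenalectomized groups, all TTP-A libraries were below all WT-A libraries (ranges were apart for 2 of the 7 genes, Hsd11b2 and Nr3c1, and for 12.2% of all genes), a difference of -0.49 (SE 0.15), with an edgeR adjusted p of 0.061, again above the threshold, and 0.0415 in DESeq2 and 0.0219 in limma-voom. In edgeR it was 0.125 without WT-A 3 and 4 and 0.154 with the GC correction, 0.169 in a fit of only these groups and 0.0895 with the replicate number as a block. It did not pass in 7 of 8 leave-one-out fits (adjusted p up to 0.165), the exception being without WT-A 1 (0.0299).

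Hsd11b1, the activating enzyme (ENSMUSG00000016194.14; chromosome 1, 193221634 to 193264075, reverse strand), was the least abundant of the 7, with 20 to 73 counts per library. WT-S gave 2.24, 1.10, 1.01 and 1.02 CPM, and WT-A gave 1.84, 2.31, 2.58 and 1.48 CPM. WT-S 1 was apart from the other 3 WT-S libraries, which were below every WT-A library. The difference was 0.63 with a wide SE of 0.33 (edgeR adjusted p = 0.182), while limma-voom, which weights libraries, gave 0.93 (adjusted p = 0.0498). Without WT-S 1 the edgeR difference was 0.97 (adjusted p = 0.0517). TTP-S gave 1.13, 1.69, 2.13 and 1.57 CPM, and TTP-A gave 3.32, 1.40, 1.30 and 2.55 CPM. These ranges overlapped widely, and the difference of 0.40 (SE 0.33; edgeR adjusted p = 0.65) did not pass and was 0.11 without TTP-A 1.

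Per kilobase of all annotated exons, Hsd11b1 was below Hsd11b2 in all 16 libraries. The ratio of the per-length levels was 0.212 to 0.403 in WT-S, 0.177 to 0.255 in WT-A, 0.220 to 0.345 in TTP-S and 0.205 to 0.421 in TTP-A. The ranges of the 4 groups overlapped, so this ratio separated no group. The order depends on the length used, since the exons of Hsd11b1 cover 4251 bases and its longest coding transcript 1623, against 1840 for Hsd11b2 by either. Per kilobase of that transcript, an alternative chosen after seeing the data, the ratio was 0.555 to 1.05 in WT-S, 0.464 to 0.668 in WT-A, 0.577 to 0.903 in TTP-S and 0.537 to 1.10 in TTP-A, and it exceeded 1 in WT-S 1, TTP-A 1 and TTP-A 4.

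H6pd, the reticular hexose-6-phosphate dehydrogenase (ENSMUSG00000028980.14; chromosome 4, 149979475 to 150009023, reverse strand), was well covered, with 1518 to 3378 counts per library. WT-S gave 96.4, 74.2, 84.0 and 77.7 CPM (mean 83.1 ± 9.78), and WT-A gave 121.9, 96.8, 119.5 and 102.6 CPM (mean 110.2 ± 12.4). The groups did not overlap, but the highest WT-S library, WT-S 1, was just under the lowest WT-A library, WT-A 2. The difference was 0.41 (SE 0.09; edgeR adjusted p = 0.00896), and it passed in all 8 leave-one-out fits. It was 0.40 without WT-A 3 and 4 (adjusted p = 0.0301). With the GC correction it was 0.27 and no longer passed (edgeR adjusted p = 0.0707), nor did it pass in a fit of the WT groups alone (adjusted p = 0.0666).

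TTP-S gave H6pd levels of 75.1, 84.8, 83.8 and 85.4 CPM, and TTP-A gave 98.6, 86.3, 84.8 and 96.5 CPM. TTP-A minus TTP-S was 0.15 (SE 0.09; edgeR adjusted p = 0.468), with overlapping ranges. TTP-A minus WT-A was -0.27 (SE 0.09; adjusted p = 0.0875), -0.26 without WT-A 3 and 4 (0.198) and -0.16 with the GC correction (0.336), and of 8 leave-one-out fits it passed in 1, without WT-A 2 (0.0397; up to 0.239 in the others). The interaction was -0.25 (SE 0.13; edgeR adjusted p = 0.356), and -0.14 with the GC correction. The difference between genotypes in the response of H6pd thus did not pass.

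Nr3c1, the glucocorticoid receptor (ENSMUSG00000024431.15; chromosome 18, 39410545 to 39519421, reverse strand), had 1159 to 1988 counts per library. WT-S gave 70.9, 78.5, 79.1 and 79.0 CPM (mean 76.9 ± 4.02), and WT-A gave 71.8, 68.5, 52.9 and 50.4 CPM (mean 60.9 ± 10.8). The WT-A libraries fell into pairs, with WT-A 1 close to the lowest WT-S library and WT-A 3 and 4 far below. The difference of -0.34 (SE 0.10) was called by edgeR (adjusted p = 0.0286). It was -0.13 without WT-A 3 and 4 (adjusted p = 0.231) and -0.04 with the GC correction (adjusted p = 0.711), and it did not pass in 5 of 8 leave-one-out fits, those without WT-A 3, WT-A 4 and WT-S 2 to 4 (adjusted p up to 0.0951). In a fit of the WT groups alone it was -0.33 and did not pass (edgeR adjusted p = 0.133).

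In TTPΔARE corpus Nr3c1 was level between the conditions, with 80.4, 76.3, 86.1 and 74.4 CPM in TTP-S and 77.8, 78.03, 87.1 and 76.9 CPM in TTP-A. The difference was 0.01 (SE 0.10; edgeR adjusted p = 0.979). Nr3c1 was the only one of the 7 genes that edgeR called between TTP-A and WT-A, at 0.39 (SE 0.10; adjusted p = 0.0358), where 5.17% of all genes were called. DESeq2 called it too (0.00606), along with Hsd11b2, whereas limma-voom did not (0.24, adjusted p = 0.0672) and called Hsd11b2 in its place, where DESeq2 called 10.6% and limma-voom 5.17% of all genes. All TTP-A libraries were above all WT-A libraries. That edgeR call too was lost in a fit of only these groups (adjusted p = 0.175), without WT-A 3 and 4, at 0.19 (adjusted p = 0.151; background 1.87%), with the GC correction, at 0.11 (adjusted p = 0.249), and in 6 of 8 leave-one-out fits (adjusted p up to 0.119), the exceptions being those without WT-A 1 or WT-A 2. The interaction was 0.35 (SE 0.14; edgeR adjusted p = 0.269) and did not pass. It was 0.15 without WT-A 3 and 4 and 0.06 with the GC correction.

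Nr3c2, the mineralocorticoid receptor (ENSMUSG00000031618.13; chromosome 8, 76899442 to 77245012, forward strand), had 304 to 609 counts per library. Its exons overlap those of Gm10649 on the other strand over 247 bases, where reads cannot be told apart without strand. WT-S gave 17.02, 20.3, 21.7 and 27.3 CPM, and WT-A gave 14.8, 16.4, 15.9 and 18.6 CPM. WT-S 1, with the high sum of neck and SPEM markers, lay among the WT-A libraries. The difference of -0.40 (SE 0.13; edgeR adjusted p = 0.0398) was as large without WT-A 3 and 4, at -0.47, but there it did not pass (adjusted p = 0.0632), nor with the GC correction, at -0.32 (adjusted p = 0.101). In leave-one-out fits it did not pass in 6 of 8 (adjusted p up to 0.139, at -0.26 without WT-S 4) and held only without WT-A 4 or WT-S 1. In a fit of the WT groups alone it was -0.39 and did not pass (edgeR adjusted p = 0.121).

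TTP-S gave Nr3c2 levels of 24.7, 19.8, 25.5 and 21.9 CPM, and TTP-A gave 16.9, 21.6, 19.8 and 19.2 CPM. The difference had the same sign as in the wild type, -0.24 (SE 0.13), and did not pass (edgeR adjusted p = 0.375). The interaction was 0.15 (SE 0.18), within its error, 0.23 without WT-A 3 and 4 and 0.09 with the GC correction.

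The glucocorticoid receptor transcript exceeded the mineralocorticoid receptor transcript in all 16 libraries per kilobase of exon. The ratio of Nr3c1 to Nr3c2 per length was 2.44 to 3.51 in WT-S, 2.28 to 4.09 in WT-A, 2.75 to 3.25 in TTP-S and 3.04 to 3.87 in TTP-A, and these ranges overlapped. The lower values of WT-A were those of WT-A 3 and 4, at 2.80 and 2.28.

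Fkbp4, the FKBP52 co-chaperone that aids hormone binding and movement to the nucleus (ENSMUSG00000030357.10; chromosome 6, 128429735 to 128438677, reverse strand), was the most abundant, with 5504 to 8198 counts per library. WT-S gave 310.8, 297.1, 304.4 and 281.8 CPM, and WT-A gave 288.2, 268.6, 302.6 and 356.4 CPM. The WT-A range enclosed the WT-S range, and the difference was 0.03 (SE 0.07; edgeR adjusted p = 0.812), turning to -0.10 without WT-A 3 and 4 and -0.11 with the GC correction, without passing in either. TTP-S gave 302.0, 306.2, 284.1 and 292.8 CPM, and TTP-A gave 310.4, 321.7, 328.5 and 312.3 CPM. These ranges did not overlap, as for 13.7% of all genes in this comparison, but the difference was small, 0.10 (SE 0.07; edgeR adjusted p = 0.55). TTP-A minus WT-A was 0.07 (SE 0.07; edgeR adjusted p = 0.546), 0.19 without WT-A 3 and 4 (0.0704) and 0.17 with the GC correction (0.0789). The interaction was 0.08 (SE 0.10; edgeR adjusted p = 0.713), 0.20 without WT-A 3 and 4 (0.217) and 0.19 with the GC correction (0.28).

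Ptges3, the p23 co-chaperone, also known as cytosolic prostaglandin E synthase (ENSMUSG00000071072.12; chromosome 10, 128058954 to 128077272, forward strand), had 687 to 1421 counts per library. The annotation also holds a processed copy, Ptges3-ps, so the assignment of its reads is uncertain. The 4 WT-S libraries were within 46.1 to 48.5 CPM, the TTP-S libraries within 45.7 to 47.8 CPM and the TTP-A libraries within 45.8 to 52.2 CPM. WT-A gave 50.8, 49.0, 26.8 and 29.9 CPM, so that WT-A 1 and 2 were above all WT-S libraries and WT-A 3 and 4 far below them. The log2 difference of WT-A from WT-S came to -0.27 over all libraries (SE 0.15; edgeR adjusted p = 0.213). It was 0.08 without WT-A 3 and 4 (adjusted p = 0.351) and -0.05 with the GC correction (adjusted p = 0.691). Of 8 leave-one-out fits it passed only without WT-A 1 (adjusted p = 0.037). TTP-A minus WT-A was 0.29 (SE 0.15; edgeR adjusted p = 0.225) over all libraries, -0.06 without WT-A 3 and 4 (0.602) and 0.10 with the GC correction (0.491), and it too passed only without WT-A 1 (0.0402). The interaction was 0.31 (edgeR adjusted p = 0.484), -0.04 without WT-A 3 and 4 and 0.11 with the GC correction.

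**Figure D2:**
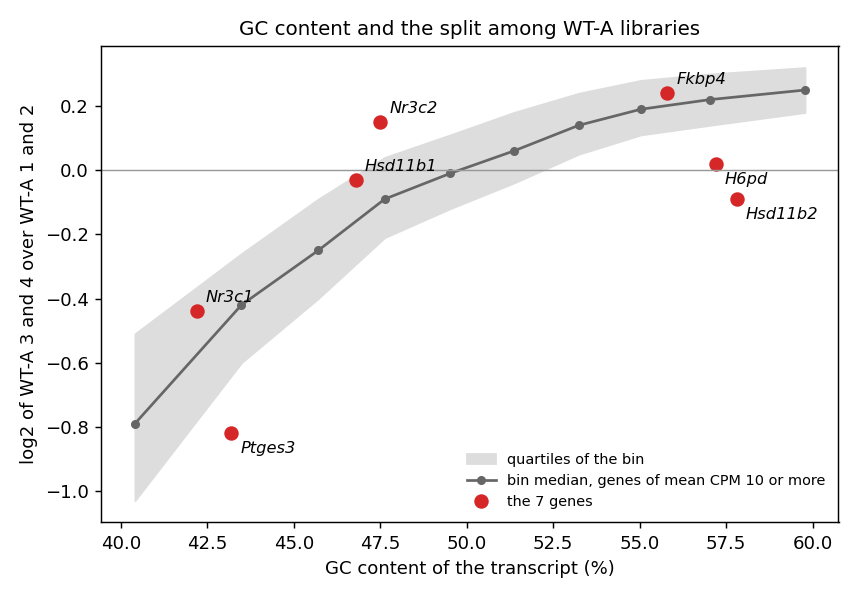
Log2 ratio of WT-A 3 and 4 to WT-A 1 and 2 (y) against the GC content of the transcript in percent (x). The grey line and band are the median and quartiles of genes in 10 bins of GC content, and red points are the 7 genes; Nr3c1 and Ptges3, with 42.2% and 43.2% GC, sit at -0.44 and -0.82, and Hsd11b2 at 57.8% GC sits at -0.09.

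The split inside WT-A followed GC content for some of the 7 genes more than for others. Between WT-A 3 and 4 and WT-A 1 and 2, Ptges3 differed by -0.82 and Nr3c1 by -0.44 on the log2 scale, where the median gene at 43.5% GC differed by -0.42. Ptges3 was below the lower quartile of those genes, -0.60. Nr3c2, with 47.5% GC, differed by 0.15, above the upper quartile of 0.04 for genes at 47.6% GC (median -0.09). Hsd11b1, with 46.8% GC, differed by -0.03. Fkbp4, with 55.8% GC, differed by 0.24, and the median gene at 57.0% GC by 0.22. H6pd, with 57.2% GC, differed by 0.02 and Hsd11b2, with 57.8% GC, by -0.09, both under the median of genes of like GC content. The plot of the WT-A split against GC content shows the 7 genes beside all genes of at least 10 CPM.

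**Figure D3:**
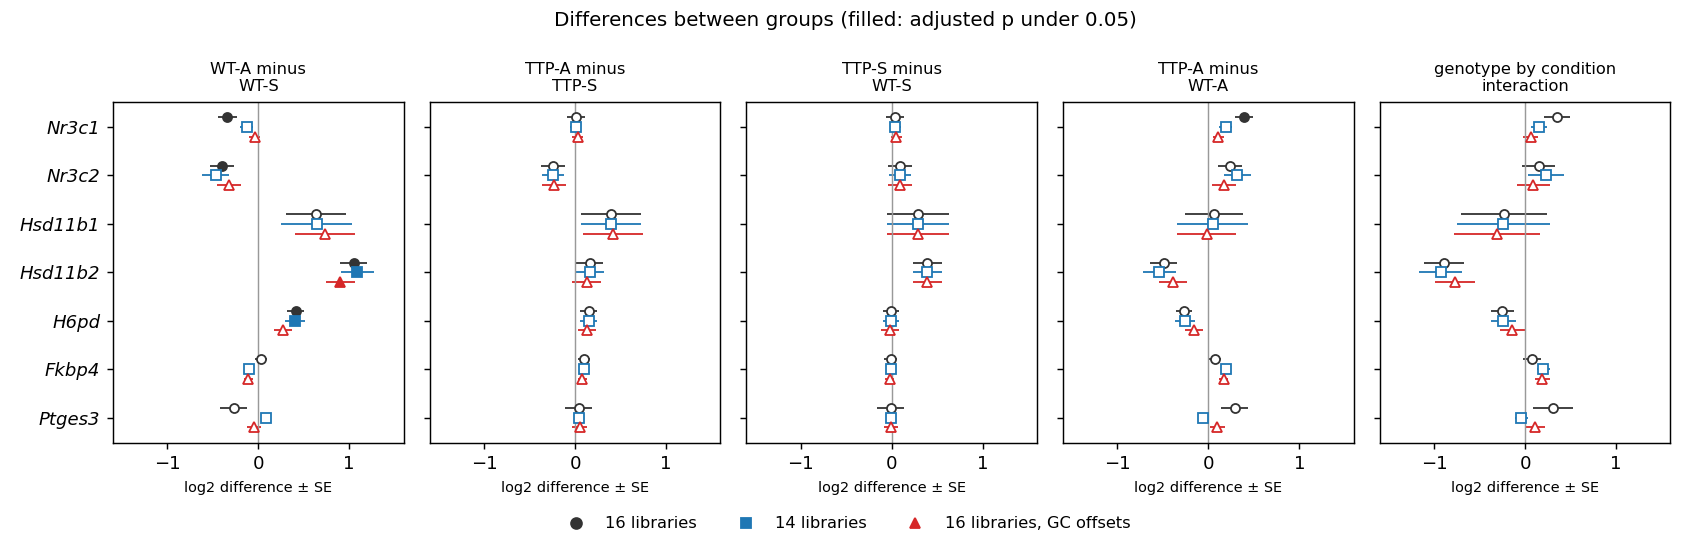
Log2 differences ± SE for the 7 genes in 4 comparisons and the interaction, from all 16 libraries (black), from 14 libraries without WT-A 3 and 4 (blue) and with the GC correction (red); filled symbols have an adjusted p under 0.05. Hsd11b2 in WT-A minus WT-S, at 1.05, 1.09 and 0.90, is filled in all 3 fits, and the Nr3c1 symbols are filled only in the black fit.

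Between the genotypes in the S condition, TTP-S against WT-S, none of the 7 genes was called by edgeR, DESeq2 or limma-voom. Only 0.0325% of all genes were called in that comparison by edgeR, and of 15385 genes DESeq2 called 100 and limma-voom 175. In edgeR 1 of the 7, Hsd11b2, had an unadjusted p under 0.05, as did 7.49% of all genes. No ranges of the 7 were apart, against 6.74% of all genes. For the interaction, none of the 7 was called by edgeR, where 0.0585% of all genes were, and 2 had an unadjusted p under 0.05 (Nr3c1 and Hsd11b2), as did 15.2% of all genes. DESeq2 and limma-voom each called 1, Hsd11b2, where they called 1.7% and 1.11% of all genes.

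Ranked by mean CPM per kilobase of exon, the 7 genes ran from Fkbp4 at 108.9 through Ptges3 at 20.4, H6pd at 17.5, Nr3c1 at 9.66, Nr3c2 at 3.10 and Hsd11b2 at 1.58 to Hsd11b1 at 0.421. Each gene was above the next in all 16 libraries, except that Ptges3 was above H6pd in 13 and Nr3c2 above Hsd11b2 in 15. Per kilobase of the longest coding transcript the order of the means was the same, with Hsd11b2 above Hsd11b1 in 13. In CPM, Fkbp4 was above 97.7% of all genes tested and Hsd11b1 above 15.5%.

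The libraries highest in summed neck and SPEM markers in 2 of the groups, WT-S 1 and TTP-A 1, were at range ends for several genes. WT-S 1 had the highest Hsd11b1, Hsd11b2 and H6pd of the WT-S libraries and the lowest Nr3c1 and Nr3c2, and TTP-A 1 had the highest Hsd11b1, Hsd11b2 and H6pd and the lowest Nr3c2 of the TTP-A libraries. Within WT-A the genes differed in this. WT-A 1, with the lowest marker sum, had the highest H6pd (121.9 CPM) and the lowest Nr3c2 (14.8 CPM). WT-A 2, with the highest marker sum, had the lowest H6pd (96.8 CPM) but also the highest Hsd11b2 (4.80 CPM). Summed neck and SPEM markers were 2094 to 2678 CPM in WT-A and 881 to 1171 CPM in TTP-S. WT-S 1, at 3174 CPM, exceeded every WT-A library in this sum. Its Hsd11b2 was 2.41 CPM, below the lowest WT-A library at 3.61 CPM. Chief cell markers summed to 75490 CPM in WT-S 1, against 122500 to 149700 CPM in the other WT-S libraries and 47230 to 100500 CPM in WT-A. In bulk biopsies fewer cells of a type and less RNA per cell cannot be told apart, and the part of these cells in the differences was not tested.

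**Figure D4:**
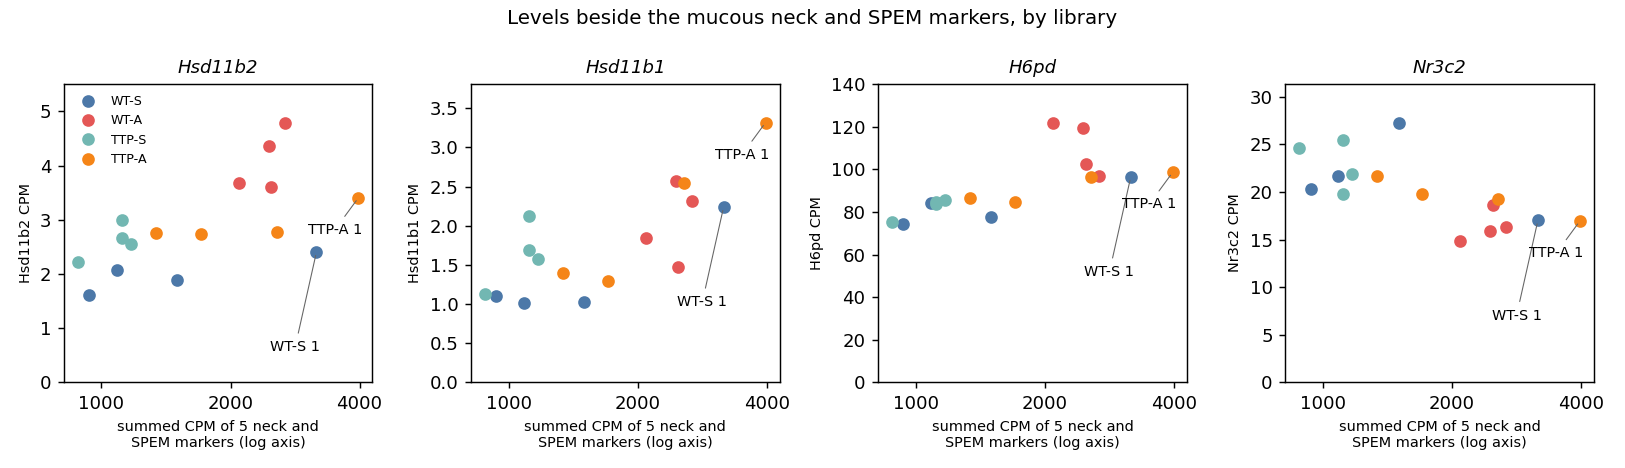
Levels of Hsd11b2, Hsd11b1, H6pd and Nr3c2 (CPM, linear y axes from 0) against the summed CPM of 5 neck and SPEM markers (log x axis), 1 point per library coloured by group. WT-S 1, at 3174 CPM of markers, and TTP-A 1, at 3975 CPM, lie to the right of all other points of their groups, with Hsd11b2 at 2.41 and 3.41 CPM.

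Other cell types also moved between the groups. Fibroblast markers summed to 1287 to 1447 CPM in WT-S, 1455 to 2297 CPM in WT-A, 1646 to 2060 CPM in TTP-S and 1852 to 2076 CPM in TTP-A, and 3 of 7 were called higher in WT-A than in WT-S. Smooth muscle markers were called higher in 4 of 5, macrophage markers in 2 of 5, and parietal cell markers lower in 3 of 5, where 9.8% of all genes were called higher and 8.99% lower. Of 4 chief cell markers 1 was called higher and 2 lower. Squamous forestomach markers reached 909 CPM in WT-A against 211 CPM in WT-S. Of the defining genes of the kidney collecting duct, where Hsd11b2 is known to be abundant, Aqp2 had at most 4 counts and Avpr2 at most 5 in any library, while Scnn1b and Scnn1g reached 167 and 186 counts. The list of 4 summed to 6.95 to 12.3 CPM in WT-S, 4.17 to 6.83 in WT-A, 12.99 to 15.2 in TTP-S and 3.27 to 12.4 in TTP-A. How much these cells contributed to the levels of the 7 genes was not tested.

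Across the 16 libraries the members moved in part together. Pearson's r of log2 CPM was 0.80 between Hsd11b2 and H6pd and 0.67 between Hsd11b2 and Hsd11b1, and it was -0.84 between Nr3c2 and H6pd. Without WT-A 3 and 4 these values were 0.73, 0.68 and -0.83. Nr3c1 and Ptges3 correlated at 0.87 over 16 libraries and at -0.10 over 14. The points share libraries and groups, and these values are descriptions.

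The genes whose levels ran closest to each member, among 9265 genes of at least 10 CPM, were chosen for each member by Pearson's r of log2 CPM over 16 libraries, and the same gene's r over the 14 libraries without WT-A 3 and 4 is given second, as a description. Hsd11b2 ran closest to Scarb1, the receptor for high-density lipoprotein (r = 0.92, and 0.90 over 14 libraries), Lgals3, galectin-3 (0.92 and 0.93), and Rbm15b (0.89 and 0.86). H6pd ran closest to Gpi1, glucose-6-phosphate isomerase (0.96 and 0.95), Abcc8 (0.95 and 0.94) and Eci2 (0.93 and 0.92). Nr3c2 ran closest to Stim1 (0.90 and 0.91), Adcy2 (0.90 and 0.91) and Maob (0.90 and 0.89).

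For Hsd11b1 the closest were Cd177 (0.86 and 0.89), C3, a complement component (0.84 and 0.83), and Mkl2 (0.83 and 0.83), while over the 14 libraries Ciz1 (0.93, against 0.67 over 16) was first and Cdc16 (0.86, against 0.63) the third. For Nr3c1 they were Pias2 (0.97 and 0.82), Tcf4 (0.97 and 0.83) and Ccdc186 (0.97 and 0.86), and for Fkbp4 Shmt1 (0.93 and 0.89), Rrp12 (0.89 and 0.81) and Wwc1 (0.87 and 0.80). For Ptges3 they were Txndc9 (0.98 and 0.78), Dnm1l (0.98 and 0.50) and Smc4 (0.98 and 0.61), which ranked 28, 840 and 319 over 14 libraries. Chosen over the 14 libraries instead, the closest to Ptges3 was Ube2z (0.87, against -0.41 over 16), and the closest to Nr3c1 were Ret (0.88, against 0.27), Zfp609 (0.87, against -0.12) and again Ccdc186. For Fkbp4, Shmt1 was closest over 14 libraries as over 16, followed by Tank (0.88, against -0.01).

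Other genes of the pathway were counted from 8 lists. Most hormone-induced targets of the receptors fell in both genotypes: 7 of 10 were called lower and none higher in WT-A against WT-S, and 7 of 10 lower and none higher in TTP-A against TTP-S, where 8.99% and 1.35% of all genes were called lower. The log2 difference was above 0 for 3 of the 10 in the wild type and 2 of the 10 in TTPΔARE. The list was drawn up with earlier results of these libraries known, so its direction is not independent evidence, and it shares Fkbp5 and Sgk1 with lists below. The median differences were -0.67 and -1.0, against 0.0094 and -0.001 for all genes. Per1, a clock gene induced by glucocorticoids, fell from 96.1 ± 13.8 to 29.9 ± 4.00 CPM in the wild type (edgeR adjusted p = 6.05e-06) and from 107.9 ± 17.97 to 36.1 ± 1.31 CPM in TTPΔARE (1.51e-05). Tsc22d3, which encodes GILZ, fell by 0.84 and 0.86 on the log2 scale and Klf9 by 0.62 and 1.08. Zbtb16 fell by 1.18 in the wild type and fell by 2.56 in TTPΔARE, and Pdk4, a kinase that restrains pyruvate dehydrogenase, fell by 0.51 and fell by 1.36. For the interaction none of the 10 was called by edgeR over 16 libraries, where 0.0585% of all genes were. Over 14 libraries 1 was called, with a negative term, where 46 of 15597 genes were called. Without WT-A 3 and 4 the wild-type count of targets called lower was 5 of 10, where 5.75% of all genes were called lower. Zbtb16 was then at an edgeR adjusted p of 0.0507 and Pdk4 at 0.279. In leave-one-out fits of the wild type Zbtb16 lost the call without WT-S 2 (0.0659) and Pdk4 in 5 of 8 (up to 0.11).

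Among 17 receptor chaperones and co-chaperones, 2 were called higher and 3 lower in the wild type, and 1 higher and 1 lower in TTPΔARE. Over all genes 9.8% were called higher and 8.99% lower in the wild type, and 1.55% and 1.35% in TTPΔARE. The medians of the list were -0.03 and 0.00. Fkbp5, the immunophilin that competes with FKBP52 and is itself induced by glucocorticoids, fell from 62.6 ± 14.3 to 37.9 ± 2.62 CPM in the wild type (edgeR adjusted p = 0.0105) and from 107.8 ± 28.9 to 40.7 ± 1.37 CPM in TTPΔARE (0.000466), whereas Fkbp4 did not pass in either. Hspa1a, an inducible Hsp70, rose by 0.66 (adjusted p = 0.00347) and by 0.54 in TTPΔARE (0.0292, lost in 5 of 8 leave-one-out fits, up to 0.12), and Hspa1b rose by 0.78 in the wild type (0.00198). These 2 genes are near-identical copies, and their counts are uncertain for that reason. Hsp90aa1 fell by 0.41 (adjusted p = 0.0387) and St13 by 0.25 (0.0205) in the wild type, and neither passed without WT-A 3 and 4 (0.322 and 0.164) or with the GC correction (0.076 and 0.988), and their calls were lost in 6 and 3 of 8 leave-one-out fits.

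Mineralocorticoid-responsive transport genes moved in both directions, 2 of 8 tested higher and 2 lower in the wild type and 2 lower in TTPΔARE, with medians of -0.09 and -0.12. Over all genes 9.8% were called higher and 8.99% lower in the wild type and 1.35% lower in TTPΔARE. Scnn1a, the alpha subunit of the epithelial sodium channel, rose from 196.3 ± 25.4 to 279.4 ± 25.6 CPM in the wild type (edgeR adjusted p = 0.00471). Scnn1g, its gamma subunit, fell from 5.08 ± 1.31 to 2.79 ± 0.189 CPM (adjusted p = 0.041; 0.15 without WT-A 3 and 4) and in TTPΔARE from 6.97 ± 0.501 to 3.10 ± 1.86 CPM (0.036). The call was lost in 6 of 8 leave-one-out fits in the wild type (up to 0.142), all but those without WT-A 1 or WT-A 2, and in 7 of 8 in TTPΔARE (up to 0.148), all but that without TTP-A 2. Sgk1, a kinase induced by both receptors, fell by 1.38 in the wild type (adjusted p = 0.00272) and by 0.93 in TTPΔARE (0.0481), where the call was lost in 7 of 8 leave-one-out fits (up to 0.169), all but that without TTP-A 2.

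Genes of steroid reduction, oxidation and transport were called in the lower direction alone: 2 of 12 tested in the wild type and 1 of 12 in TTPΔARE, with medians of -0.15 and -0.23. Over all genes 8.99% and 1.35% were called lower, and over the 14 libraries the counts were 1 and 4 of 12, where 5.75% and 3.1% of all genes were called lower. Akr1c14, a 3α-hydroxysteroid dehydrogenase, fell from 117.9 ± 7.51 to 56.2 ± 10.9 CPM in the wild type (edgeR adjusted p = 0.000666), by 0.85 without WT-A 3 and 4 and by 0.52 with the GC correction, which still passed (0.00326 and 0.0175). Hsd17b12 fell by 0.42 (adjusted p = 0.00936; 0.0697 without WT-A 3 and 4), and Hsd17b11 fell by 0.56 in TTPΔARE (0.0246), a call lost in 7 of 8 leave-one-out fits (up to 0.0949), all but that without TTP-A 2.

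Among 7 tested genes of hexose-6-phosphate and NADPH supply, the list that holds the partners of H6pd, the median was 0.19 in the wild type and 0.04 in TTPΔARE, and 1 was called lower in each, where 8.99% and 1.35% of all genes were. This was Idh1, cytosolic isocitrate dehydrogenase, which fell by 0.47 in the wild type (edgeR adjusted p = 0.00618; fell by 0.31 without WT-A 3 and 4 and by 0.25 with the GC correction, passing in both) and fell by 0.39 in TTPΔARE (0.0427). The TTPΔARE call of Idh1 was lost in 7 of 8 leave-one-out fits (up to 0.172), all but that without TTP-A 2. Of the steroid synthesis genes 8 of 16 had enough counts to test, of which 2 were called higher in the wild type (9.8% of all genes) and 1 lower in TTPΔARE (1.35%). In the wild type Stard3 rose by 0.32 (adjusted p = 0.00851) and Tspo by 0.30 (0.0307), both carriers of cholesterol, and neither passed without WT-A 3 and 4 (0.0597 and 0.296). The Tspo call was also lost in 5 of 8 leave-one-out fits of the wild type (up to 0.099). In TTPΔARE Por, the reductase that serves cytochromes P450, fell by 0.33 (0.0198), a call lost in 4 of 8 leave-one-out fits (up to 0.0871).

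Of 14 coregulators of the receptors 3 were called higher in the wild type, where 9.8% of all genes were, among them Carm1, an arginine methyltransferase, by 0.27 (edgeR adjusted p = 0.0336) and Hdac3, a histone deacetylase, by 0.17 (0.0309), lost in 5 and 4 of 8 leave-one-out fits, and none of the 3 passed without WT-A 3 and 4. In TTPΔARE 0 of the coregulators were called by edgeR over 16 libraries, where 2.9% of all genes were. Over the 14 libraries 1 was called higher there, as were 494 of 15597 genes.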

How the data were processed

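The labels name total RNA and an Illumina Tru-Seq kit; how ribosomal RNA was avoided is not given in the sources used here. The authors deposited 1 table of raw counts per gene for 16 libraries, whole numbers with no scaling; per the submitters' processing notes it was made with STAR 2.7.0f and Subread 1.6.4 (featureCounts) on mm10, and those notes also name DESeq2. The strand setting is not given in the sources used here. GENCODE M21 (GRCm38) supplied coordinates, exon lengths and GC content, and the RefSeq table for GRCm38.p6 the promoters.

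Counts were fitted in R 4.3.3 with edgeR 4.0.16 (TMM, filterByExpr, quasi-likelihood test, 4 group means over 16 libraries), with Benjamini-Hochberg adjustment over 15385 genes; called means an adjusted p under 0.05. CPM are scaled by TMM. The SE is the log2 difference divided by the square root of F. Depth of 17453930 to 25849472 counts limits Hsd11b1 and Hsd11b2, and errors between libraries exceed counting error. GC correction used loess offsets (span 0.5). Alternatives were DESeq2 1.42.0 (size factors, and Wald test), limma 3.58.1 (voom, sample weights), other filters, the groups compared alone, the replicate number as a block, 14 libraries and leaving out each library. The scripts were tested on simulated data.

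Members and gene lists were chosen with earlier results of these data known. Named beside the 7 genes are the called genes of the 8 pathway lists in WT-A minus WT-S or TTP-A minus TTP-S, and for each member the 3 genes of highest correlation with a mean of at least 10 CPM, leaving out unnamed gene models and ribosomal protein genes. Markers come from 12 lists. A few genes and the list of other steroid hormone receptors are not reported here.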

Additional observations from a re-analysis of the deposited data

Results flagged for a closer look

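In 5 of the 28 groups of 4 libraries examined (7 genes in 4 groups), 1 library stood far from the other 3 by Dixon's criterion, which chance gives in about 1 of 20 groups. WT-S 1 had the lowest Nr3c1 of its group, 70.87 CPM, and the highest Hsd11b1, 2.239 CPM. TTP-A 1 had the highest Hsd11b2 of its group, 3.407 CPM. WT-S 1 and TTP-A 1 are the libraries with the highest summed neck and SPEM markers of their groups, at 3174 and 3975 CPM. TTP-A 3 had the highest Nr3c1 of its group, 87.06 CPM, and TTP-S 1 the lowest H6pd of its group, 75.11 CPM.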

How the results depend on the processing

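Of 308 values for single named members under other settings, 282 kept their direction and side of the threshold, 12 lost the call, 5 gained it and 9 changed sign; with 1 library left out these were 301, 17, 4 and 14 of 336. Members called in WT-A minus WT-S numbered 4, but 1 in a fit of only these groups, 2 over 14 libraries and 1 with GC offsets, and 2 to 4 with 1 library left out. Members called in TTP-A minus WT-A numbered 1, but 2 by DESeq2, 0 in a fit of only these groups, 0 over 14 libraries, 0 with GC offsets, and 0 to 3 with 1 library left out (3 without WT-A 1). In TTP-A minus WT-A limma-voom also called 1 member, Hsd11b2 in place of Nr3c1. The interaction called 0 members, but 1 by DESeq2 and 1 by limma-voom. The cause was not tested.

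All genes called in WT-A minus WT-S numbered 2891, but 675 in a fit of only these groups, 1620 over 14 libraries, and 1254 (without WT-S 2) to 4977 (without WT-A 1) with 1 library left out. In TTP-A minus TTP-S they numbered 446, but 863 by DESeq2, 2346 by limma-voom, 1195 in a fit of only these groups, 977 over 14 libraries, 789 with GC offsets, and 60 (without TTP-A 1) to 937 (without TTP-A 2). In TTP-S minus WT-S they numbered 5, but 100 by DESeq2, 175 by limma-voom, 60 in a fit of only these groups, 57 over 14 libraries, 31 with GC offsets, and 1 (without TTP-S 2) to 15 (without WT-S 2). In TTP-A minus WT-A they numbered 796, but 1636 by DESeq2, 1 in a fit of only these groups, 292 over 14 libraries, and 86 (without WT-A 3) to 3202 (without WT-A 1). The interaction called 9, but 262 by DESeq2, 171 by limma-voom, 46 over 14 libraries, 30 with GC offsets, and 2 (without TTP-S 3) to 211 (without WT-A 1).

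These values changed sign. By limma-voom Nr3c1 in TTP-A minus TTP-S was -0.004, H6pd in TTP-S minus WT-S 0.015 and Fkbp4 in WT-A minus WT-S -0.087. Over 14 libraries Fkbp4 in WT-A minus WT-S was -0.10, and Ptges3 was 0.081 in WT-A minus WT-S, -0.056 in TTP-A minus WT-A and -0.041 in the interaction. With GC offsets Hsd11b1 in TTP-A minus WT-A was -0.024, Fkbp4 in WT-A minus WT-S -0.11 and St13 there 0.002. With 1 library left out the ranges that crossed 0 were -0.032 to 0.053 for Nr3c1 and -0.002 to 0.062 for Ptges3 in TTP-A minus TTP-S, -0.007 to 0.22 for Nr3c2, -0.065 to 0.065 for H6pd and -0.036 to 0.011 for Fkbp4 in TTP-S minus WT-S, -0.23 to 0.24 for Hsd11b1 in TTP-A minus WT-A, and -0.059 to 0.081 for Fkbp4 in WT-A minus WT-S.

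The replicate numbers showed no clear pairing of the libraries: over 24 pairs with the same number the correlation of deviations was -0.513 to 0.331, and 7 were over 0.1. Any difference between libraries enters these deviations, so the check cannot decide whether libraries share a batch or a pairing. With the replicate number as a block, genes called were 2853, 427, 5, 624 and 4 in WT-A minus WT-S, TTP-A minus TTP-S, TTP-S minus WT-S, TTP-A minus WT-A and the interaction, and members called were 4, 0, 0, 1 and 0, as without it. In 4 of the 24 pairs the library of the same number was the closest of the other group, so not every library correlated best with its own number.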
